A study of Mus musculus with 8 samples.

Results

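Transcripts of a pair of segments of mouse chromosome 14, which hold Dnase1l3 and Opn4, were measured in dorsal root ganglia (DRG) of mice that lack α-galactosidase A, a model of Fabry disease (FD). The members are the array probes whose file position (genome build mm9) lies on chromosome 14 from base 1 to 23000000 or from 33000000 to 36000000. Probes named only by a genomic interval (114) and probes of genes whose names start with Anxa, Kcnk or Nduf (6) inside these borders were left out, and 280 of the 55681 probes of the array remained. They carry 206 names, 212 probes lie in the first segment and 68 in the second. The segments were chosen because they hold many probes that differed between FD and wildtype in these same samples. Every FD against wildtype value of a member is therefore a description, and no p-value is given for any member.

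Lumbar DRGs L3 to L5 hold the cell bodies of the sensory neurons that serve the hind paw. The FD group consisted of male α-Gal A(-/0) mice on a C57BL/6 background, and the controls were male wildtype mice. All were labelled C57BL/6J and 20 to 24 weeks old, and each group had 4 samples with the ganglia of 2 mice pooled in each. The groups came from separate inbred colonies, so the missing enzyme and the colony cannot be told apart in any value below. The authors also ran RT-qPCR on separate mice, with the FD mice backcrossed to C57BL/6J. There Dnase1l3 and Opn4 were higher in FD, Syt15 was lower and Samd8 was not regulated.

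Dnase1l3 encodes a secreted endonuclease that degrades DNA in chromatin and in microparticles, and it is known above all from dendritic cells and macrophages. Opn4 encodes melanopsin, the photopigment of the intrinsically photosensitive ganglion cells of the retina. Samd8 encodes an enzyme of the endoplasmic reticulum related to the sphingomyelin synthases, which makes ceramide phosphoethanolamine, and Syt15 belongs to the synaptotagmins, a family of membrane trafficking proteins. The start of chromosome 14 also holds a dense set of predicted gene models, many of them close in sequence. Members of both segments are here named copies by their name (Gm or LOC with a number) or a description as predicted genes, not by sequence.

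A member's value rests on a probe of 60 bases. For the 4 named genes and for Gm3219, a predicted pseudogene, the middle 30 bases of the probe are printed 5′ to 3′ because these are the genes the segments were described by and, for Gm3219, the member with the largest bound on its fold. No base stands out among them, so none is in capitals.
Dnase1l3: tctccacatgtaaacatgcccccaataaat
Opn4: tcagaacctagaagatggagaactcaaggc
Samd8: gacagggtttctctaattcagggatcacct
Syt15: atgatatggtatagctgtgtaactaggtcc
Gm3219: gttttttcagattagaagttctctatgggg
These probes map to chr14:8797719-8797778 (minus strand), chr14:35406140-35406199 (minus), chr14:22615320-22615379 (plus), chr14:35043301-35043360 (plus) and chr14:35158425-35158484 (plus), all on mm9. Whether a position is exonic or untranslated was not analysed here.

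Some of the predicted copies have probes alike in sequence. Of their 47 probes, 18 had a related probe somewhere on the array, and so had 4 of the 11 that were called higher in FD. Not every relative was a copy, and for 3 of the 18 a related probe lay outside the members. The other 7 called copies had no related probe at the called position. An unnamed probe at chr14:4202054-4202113, a probe of Gm5797 at chr14:8156728-8156787 and a probe of Gm5458 at chr14:20413566-20413625 cover a common stretch of 30 bases, with bases unlike the first line in capitals.
A_55_P2023449: cgtgggctccatagtttctttacagccaga
Gm5797: cTtgggctAcatagtttctttacagccaga
Gm5458: cCtgggctccatagtttcttCaGagccaga
Another set of 3 shares a different stretch, from chr14:4976100-4976159, chr14:4139620-4139679 and chr14:5269494-5269553, and the first pair is letter for letter the same.
Gm3264: aaacgtaaggatattactgaatgagaacag
Gm5796: aaacgtaaggatattactgaatgagaacag
Gm3317: aaaTgtaaggatattactgaatgagaacag
A transcript of 1 of these models may bind several of the probes, which was not tested, so a value cannot be assigned to 1 copy with certainty.

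The sequence likeness extends to the start sites of the copies. RefSeq promoters (build GRCm38.p6, 250 bases before to 50 after the start) were held for 16 of the copies, of which 11 had at least 1 other promoter that was 90% identical or more. All 8 of the 16 copies with a probe called higher in FD were among these 11, and every such relative lies on chromosome 14. The 11 also include Gm10413 and Gm3317, tested and not called, and Gm10408, not tested. The promoter of Gm10413 was 100% identical over 271 bases to that of Gm5795, which had a called probe. Like promoters thus did not go with like calls throughout. Gm5797 and Gm5458 are shown because they lie far apart on the chromosome and both had a called probe. Their stretches before the start, at chr14:7332402-7332645 and chr14:19602588-19602831 (GRCm38.p6, minus strand), differed at 6 of 244 bases, which are in capitals.
Gm5797: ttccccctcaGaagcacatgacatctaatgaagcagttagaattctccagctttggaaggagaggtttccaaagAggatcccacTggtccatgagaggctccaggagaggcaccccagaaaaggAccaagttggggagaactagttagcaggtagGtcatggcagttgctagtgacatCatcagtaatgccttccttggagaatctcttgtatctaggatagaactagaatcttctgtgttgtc
Gm5458: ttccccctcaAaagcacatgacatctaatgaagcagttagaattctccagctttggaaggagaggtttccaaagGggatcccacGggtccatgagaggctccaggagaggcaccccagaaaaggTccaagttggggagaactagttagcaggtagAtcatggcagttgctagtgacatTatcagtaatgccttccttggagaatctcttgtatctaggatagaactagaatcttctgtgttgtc
Gm5796 and Gm3383 form another pair, at chr14:4023710-4023940 (plus) and chr14:5807959-5808189 (minus), and differed at 4 of 231 bases.
Gm5796: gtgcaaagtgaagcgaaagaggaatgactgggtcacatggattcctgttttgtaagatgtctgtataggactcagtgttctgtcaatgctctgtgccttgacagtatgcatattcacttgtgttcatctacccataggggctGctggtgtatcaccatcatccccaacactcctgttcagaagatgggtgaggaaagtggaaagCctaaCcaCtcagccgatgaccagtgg
Gm3383: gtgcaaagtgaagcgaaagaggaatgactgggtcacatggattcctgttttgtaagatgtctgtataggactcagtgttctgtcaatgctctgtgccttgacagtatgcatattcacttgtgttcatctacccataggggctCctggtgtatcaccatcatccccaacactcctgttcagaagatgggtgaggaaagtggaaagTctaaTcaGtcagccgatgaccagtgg
Over all 27025 promoters, 20 were at least 90% identical to that of Gm5797, which is 0.074%. The promoter of Gm5796 had 1 such relative, Gm3383.

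The arrays were not all alike in quality. For FD samples 1 to 3 and wildtype sample 1, all on slide row 1, 93 to 141 spots per array were outliers. For FD sample 4 and wildtype samples 2 to 4, all on slide row 2, the count was 196 to 221. The count of outliers is thus partly tied to genotype. The share of probes well above background ranged from 56.5% to 60.8% between arrays and was lowest in wildtype samples 2 to 4 (56.5% to 57.2%). On every array 0 spots were saturated. The 10 DRG neuron markers were all detected on every array, with a mean normalized log2 signal between 14.35 and 14.58 per sample. The single probe of Gla, the targeted gene, lay between 16.49 and 16.72 in all 8 samples. Which part of Gla is disrupted was not given in the sources used here, so this probe does not check the genotype labels.

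Of the 280 members, 180 were well above background on all 8 arrays and were compared, 29 were detected on some arrays and 71 on none. In the model fitted over all 29432 tested probes of the array (limma, adjusted p under 0.05, here named called), 27 members were called higher in FD and 8 lower. Over all tested probes 3.07% were called, 1.96% higher and 1.11% lower. As these calls chose the segments, nothing is read from the members' larger share. At the threshold of the methods (an unadjusted p of at most 0.01 and a fold of at least 1.2), the methods' t-test gave 26 members higher and 9 lower, beside 2.24% and 1.32% of all tested probes, and limma gave 35 and 12, beside 3.67% and 2.36%. After Benjamini-Hochberg adjustment the methods' t-test called 11 members higher and 1 lower, beside 0.578% and 0.326%. The count of higher members was 15 without FD sample 1, 16 without FD sample 2 and 17 without wildtype sample 4. The count of lower members was 4 without FD sample 2, FD sample 3 or wildtype sample 3, and 5 without FD sample 4 or wildtype sample 4. In all 35 called members the 4 FD values lay on one side of the 4 wildtype values. Non-overlap occurred in 64 tested members, with FD above in 44 and below in 20. Over all tested probes it occurred in 13.4%, with FD above in 8.3% and below in 5.1%.

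The typical member differed little. The median absolute difference of the 180 tested members was 0.15 on the log2 scale, beside 0.10 over all tested probes and 0.10 over the 901 tested probes of the rest of chromosome 14. The count of called members varied along the segments. From 3 to 9 Mb, 14 of 40 tested probes were called, all higher in FD. From 10 to 14 Mb, 0 of 15 were called, and from 17 to 20 Mb, 0 of 21. These stretches leave out parts with calls, such as 9 to 10 Mb (2 of 6) and 20 to 21 Mb (2 of 8). Over all tested probes 3.07% were called, so nothing is read from the stretches without a call. In the second segment 3 of 21 were called between 33 and 35 Mb, and 5 of 13 in the last Mb. Of the called probes 6 differed at least 2-fold.

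**Figure D1:**
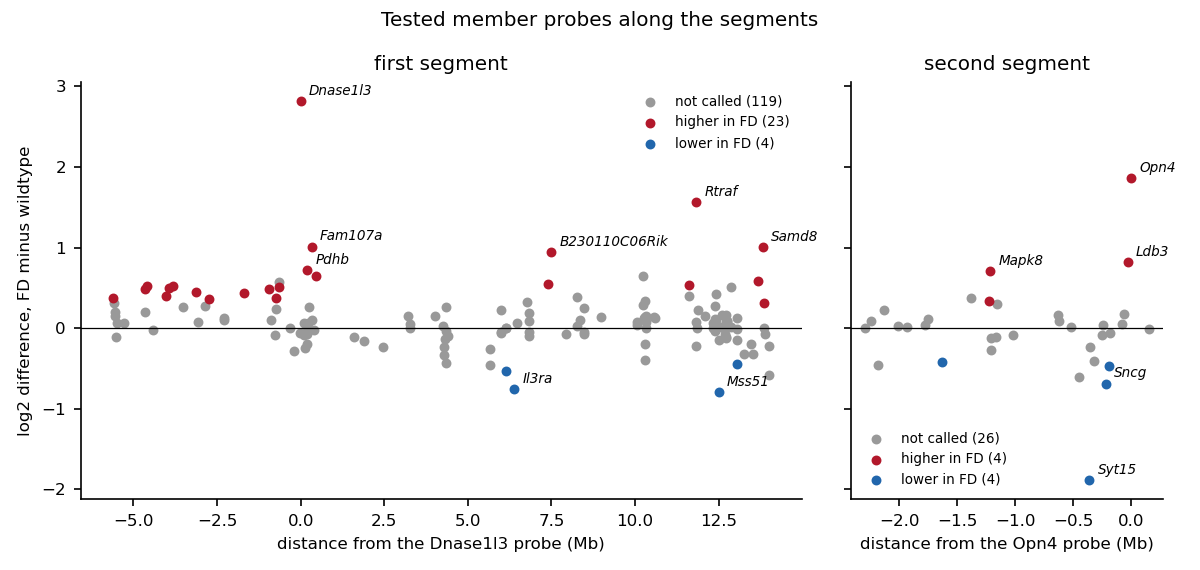
Log2 difference (FD minus wildtype) of the 180 tested member probes against their distance in Mb from the Dnase1l3 probe (first segment) or the Opn4 probe (second segment), coloured by call. Called probes at the start of the first segment lie above 0 in a narrow band, and Dnase1l3, Opn4, Rtraf and Syt15 stand far from the other probes.

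The called probes nearest to each border were as follows. The first called member was Gm5795 at 3196006, 0.37 higher in FD. The last called member of the first segment was Comtd1, a putative methyltransferase gene, 0.32 higher, and the next called probe on the chromosome was Wnt5a at 29336664, 0.32 higher. Before the second segment lay Itih3 at 31721835, 0.58 higher, and the first called member inside was Wdfy4, needed for cross-presentation by dendritic cells, 0.42 lower. Opn4 was the last called member, and Cdhr1 at 37891387, a photoreceptor cadherin, was the next called probe beyond the border, 0.73 lower.

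Dnase1l3, a nuclease gene, had the largest difference among the 180 tested members. Its normalized log2 signals were 7.94, 8.04, 8.35 and 8.17 in the FD samples and 5.21, 5.35, 5.12 and 5.56 in the wildtype samples. Every FD sample lay more than 2 log2 units above every wildtype sample. The group means of 8.12 ± 0.18 and 5.31 ± 0.19 (SD, n = 4 each) differed by 2.81 with a standard error (SE) of 0.12, a 7.03-fold higher signal in FD. With normexp background correction, which here added an offset of 50 to every signal, the difference was 1.63.

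The other DNases lie elsewhere in the genome and were not used to choose the segments. Of 10 listed genes, 7 were tested and 0 were called in either direction by limma, with 2 at an unadjusted p under 0.05 and 0 called by the methods' t-test after adjustment. Over all tested probes 17.6% had such an unadjusted p in limma. Dnase2a, the lysosomal DNase, was 0.17 lower in FD with an SE of 0.11 and an adjusted p of 0.44. Dnase1l1 differed by 0.01 with an SE of 0.07 and an adjusted p of 0.956, and Dnase1 itself was not well above background on any array. The cell types in which Dnase1l3 is known were followed by their markers. The mean log2 signal of 5 tested dendritic cell markers ranged from 9.33 to 9.37 in FD and from 9.19 to 9.47 in wildtype samples. That of 7 macrophage markers ranged from 9.13 to 9.60 and from 9.30 to 9.55, so both ranges overlapped. Single markers went opposite ways. Cd68 was 0.51 higher in FD (SE 0.12, adjusted p of 0.0573 in limma) with no overlap between the groups, and Aif1 was 0.46 lower (SE 0.18, adjusted p of 0.233 in limma) with overlap. The part of these cells in the Dnase1l3 difference was not tested. Of the dendritic cell markers, Xcr1 was not detected on any array. In bulk ganglia, a change in the number of cells of a type and a change in RNA per cell cannot be told apart.

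Opn4, a receptor, had the second largest rise in mean signal among the tested members. The FD samples had signals of 7.19, 7.17, 7.26 and 7.14 and the wildtype samples 5.47, 5.35, 5.16 and 5.32. The FD values spanned little more than 0.1 and all lay above the wildtype values. The means, 7.19 ± 0.05 and 5.33 ± 0.13 (SD, n = 4 each), differed by 1.86 with an SE of 0.07, a 3.64-fold higher signal in FD. With normexp the difference was 0.99. Of 15 genes of other opsins and of phototransduction, 9 were tested and 0 were called by limma, with 3 at an unadjusted p under 0.05 and 0 by the methods' t-test after adjustment. Such an unadjusted p was found for 17.6% of all tested probes in limma. Opn1mw, the middle wavelength cone opsin, was 0.62 higher in FD with an SE of 0.17 and an adjusted p of 0.0915. Gnaq, a G protein subunit used by melanopsin, was 0.14 lower with an SE of 0.06 and an adjusted p of 0.246. None of 7 photoreceptor markers was detected on all arrays. Rbp3, which encodes the retinoid carrier of the retina and is a member on the second segment, differed by 0.16 (SE 0.10) and was not called.

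Samd8 signals were 8.39, 8.44, 8.54 and 8.45 in FD and 7.50, 7.47, 7.32 and 7.51 in wildtype samples. The groups were separated by almost 1 log2 unit, and the spread within each was small. The means of 8.46 ± 0.06 and 7.45 ± 0.09 (SD, n = 4 each) differed by 1.01 with an SE of 0.06, a 2.01-fold higher signal in FD, and by 0.74 with normexp. The sphingomyelin synthases proper, Sgms1 and Sgms2, lie on other parts of the genome. Sgms1 was 0.14 lower (SE 0.06, adjusted p of 0.29 in limma) and Sgms2 0.16 higher (SE 0.09, adjusted p of 0.42 in limma).

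Syt15 had the largest lower difference among the called members. Its tested probe, for transcript variant a, gave 5.83, 5.83, 5.93 and 5.56 in FD and 7.61, 7.74, 7.67 and 7.69 in wildtype samples. All FD samples lay more than 1 log2 unit below the wildtype samples. The means of 5.79 ± 0.16 and 7.68 ± 0.05 (SD, n = 4 each) gave a difference of -1.89 with an SE of 0.08, a 3.70-fold lower signal in FD, and -1.15 with normexp. The probe for variant b was not well above background on any array. Within the rows of the slide, which held 3 FD and 1 wildtype sample in row 1 and 1 FD and 3 wildtype samples in row 2, the Syt15 difference was -1.75 and -2.14. The Opn4 difference was 1.73 and 1.86 within the rows, that of Dnase1l3 2.90 and 2.82, and that of Samd8 0.96 and 1.02.

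**Figure D2:**
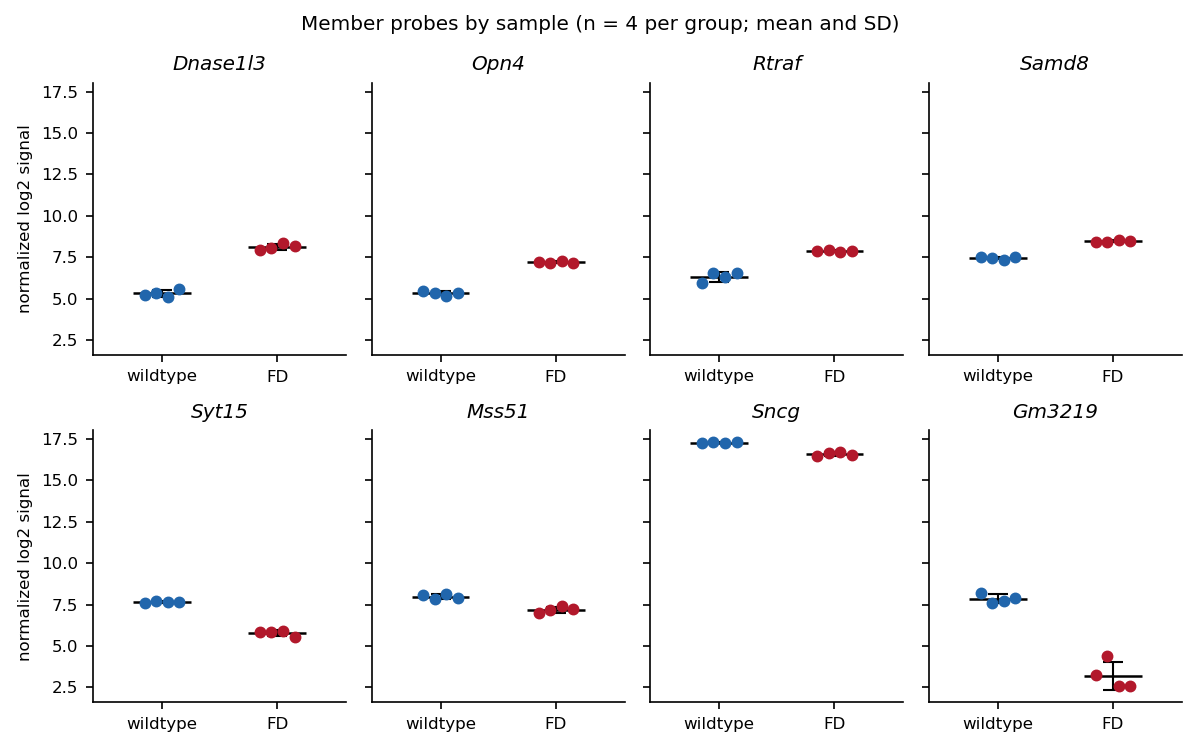
Normalized log2 signal of 8 member probes in each sample, wildtype in blue and FD in red, with the mean and SD of each group (n = 4). The groups are separated in every panel, and the 4 FD values of Gm3219 are not well above background.

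Gm3219, whose probe begins 426 bases past a probe of Glud1, was detected in wildtype samples and in no FD sample. The wildtype signals were 8.22, 7.58, 7.73 and 7.87, and the FD signals, none of them well above background, were 3.24, 4.41, 2.59 and 2.58. Set against the lowest signals that count as above background on the FD arrays, the transcript was at least 10.2-fold lower in FD. The 2 tested probes of Glud1, glutamate dehydrogenase, differed by -0.08 and 0.04 and were not called. Gdf10, a growth factor of the bone morphogenetic protein family, was detected on 3 wildtype arrays and no FD array and was at least 1.83-fold lower. Detected on 3 FD arrays and on no wildtype array were Fam25c (at least 1.41-fold higher), Acox2, a peroxisomal acyl-CoA oxidase (at least 1.45-fold), Gm10403 (at least 1.18-fold) and an unnamed probe at 3247345 (at least 1.04-fold). The groups overlapped in Acox2 and Gm10403. In all of these and in Gdf10, the brighter mean includes an array not well above background, so these bounds are loose.

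The predicted gene copies of the first segment lay mostly on the same side. Of 47 probes of such models in both segments, 22 were tested, 11 were called higher and 0 lower, beside 1.96% and 1.11% of all tested probes. Gm3219, at least 10.2-fold lower in FD, is among the 47 and was not tested. As copies were taken by name or description, relatives in sequence such as D830030K20Rik and A_55_P2023449 count among the other probes. The count of 11 was 4 without FD sample 1, 5 without FD sample 2, 6 without FD sample 3, 6 without wildtype sample 3 and 5 without wildtype sample 4. It was 1 by the methods' t-test after adjustment, 2 with the replicate block, 5 without a filter on dim probes, 6 with the slide row as a block and 7 over all probes the authors tabulated. In the first segment 19 of 20 tested copy probes had a higher FD mean, beside 77 of the 126 other tested probes. In 14 of the 20 all FD values lay above all wildtype values, beside 8.3% of all tested probes. The segments were chosen on this contrast, so nothing is read from these counts. The median difference of the 20 copy probes was 0.38, beside 0.04 over the 126 other tested probes of the segment and 0.02 over all tested probes. It was 0.35 with 75th percentile scaling and 0.24 with normexp, and it kept its sign. The mean signal over these 20 probes was 7.74, 7.77, 7.72 and 7.70 in the FD samples and 7.34, 7.37, 7.44 and 7.43 in the wildtype samples. All FD samples lay above all wildtype samples.

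The called copies had small differences, from 0.37 to 0.54, or 1.29-fold to 1.45-fold. Gm5458 signals were 8.02, 8.08, 8.09 and 8.03 in FD and 7.51, 7.36, 7.67 and 7.54 in wildtype samples. Its difference was 0.54 (SE 0.07), and its second tested probe differed by 0.40 (SE 0.13) and was not called. Both probes thus had the higher mean in FD. The pair of Gm5797 probes differed by 0.51 (SE 0.09), called, and by 0.57 (SE 0.14), not called. Gm3264 differed by 0.53 (SE 0.10), whereas Gm5796 at the probe that shares 48 of 48 aligned bases with it differed by 0.20 (SE 0.10) and was not called. The second Gm5796 probe was called at 0.48 (SE 0.10). Gm3252 differed by 0.50, Gm10406 by 0.49, Gm3383 by 0.45 and Gm3239 by 0.39, each with an SE of 0.06 to 0.07. The unnamed probe A_55_P2023449, which by its sequence belongs with Gm5797, was 0.52 higher (SE 0.05), and another unnamed probe at 7109137 was 0.43 higher. Gm10044 was the single tested copy of the first segment with a lower FD mean, at -0.29 (SE 0.11), and it was not called.

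**Figure D3:**
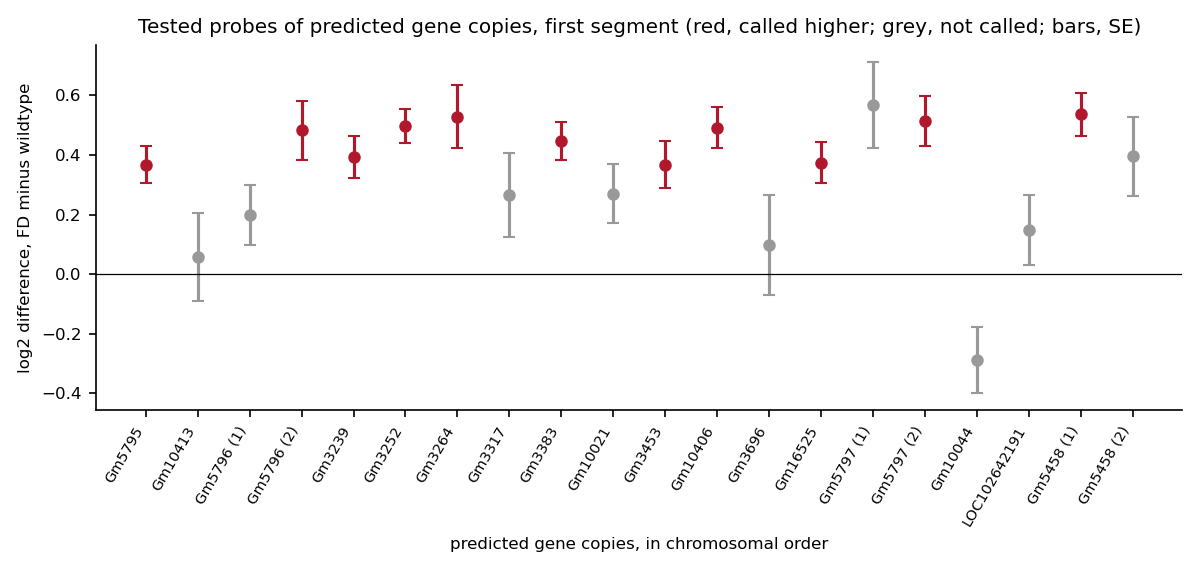
Log2 difference (FD minus wildtype) with its SE for the 20 tested probes of predicted gene copies in the first segment, in chromosomal order, called probes in red. All but Gm10044 lie above 0, and the called probes lie between 0.37 and 0.54.

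Probes of the same gene often differed from each other. Of 33 genes with several tested probes, 11 had a called probe, in 0 of these were all probes called, and in 6 the called probe was not the brightest. Rtraf, which encodes a subunit of the tRNA ligase complex, was the extreme case. The probe at 20630696 gave 7.90, 7.95, 7.83 and 7.86 in FD and 5.91, 6.56, 6.28 and 6.54 in wildtype samples, a difference of 1.56 (SE 0.13) with no overlap. The probe at 20631143 differed by 0.07 (SE 0.06), with means of 14.90 and 14.83. Fam107a, an actin-associated stress response gene, differed by 1.01 (SE 0.19) at the called probe and by 0.10 (SE 0.09) at the other. The uncalled Fam107a probe holds a TG repeat, with 0 related probes found on the array. Ldb3, a Z-disc protein of muscle, differed by 0.82 (SE 0.06) at a probe for transcript variant 7 and by 0.18 (SE 0.10) at a probe for variant 1. Of the 5 skeletal muscle markers, 1 was tested and it was not called (Acta1, -0.02, adjusted p of 0.959 in limma).

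Pdhb, a subunit of pyruvate dehydrogenase, shows how close such probes can lie. The stretches below are the end of the called probe, at chr14:8998548-8998607, and the start of a probe at chr14:8998505-8998562 that was not called (mm9, minus strand), with the 15 shared bases in capitals.
Pdhb, called probe: ctaagaagtatattaTCTACATTTGCTGTT
Pdhb, overlapping probe: TCTACATTTGCTGTTtaattgttttgataa
The called probe gave 15.17, 15.23, 15.52 and 15.28 in FD and 14.25, 14.87, 14.36 and 14.81 in wildtype samples. Its difference of 0.72 (SE 0.15) compares with 0.02 (SE 0.06) at the overlapping probe and 0.06 (SE 0.13) at another Pdhb probe. Mapk8, which encodes the kinase JNK1, differed by 0.70 (SE 0.05) at 1 probe, and its other 2 tested probes had lower FD means (-0.28 and -0.12) and were not called. Kat6b, a histone acetyltransferase, had 1 probe called higher at 0.58 (SE 0.13) and 1 with a lower FD mean at -0.32 (SE 0.13), not called. Atxn7, a subunit of the SAGA chromatin complex, was called lower at -0.54 (SE 0.09), while its other probe, which lies in a TG repeat and has 22 related probes elsewhere on the array, differed by 0.00. Vcl, the adhesion protein vinculin, differed by -0.45 (SE 0.08) at the called probe and -0.15 (SE 0.05) at the other.

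**Figure D4:**
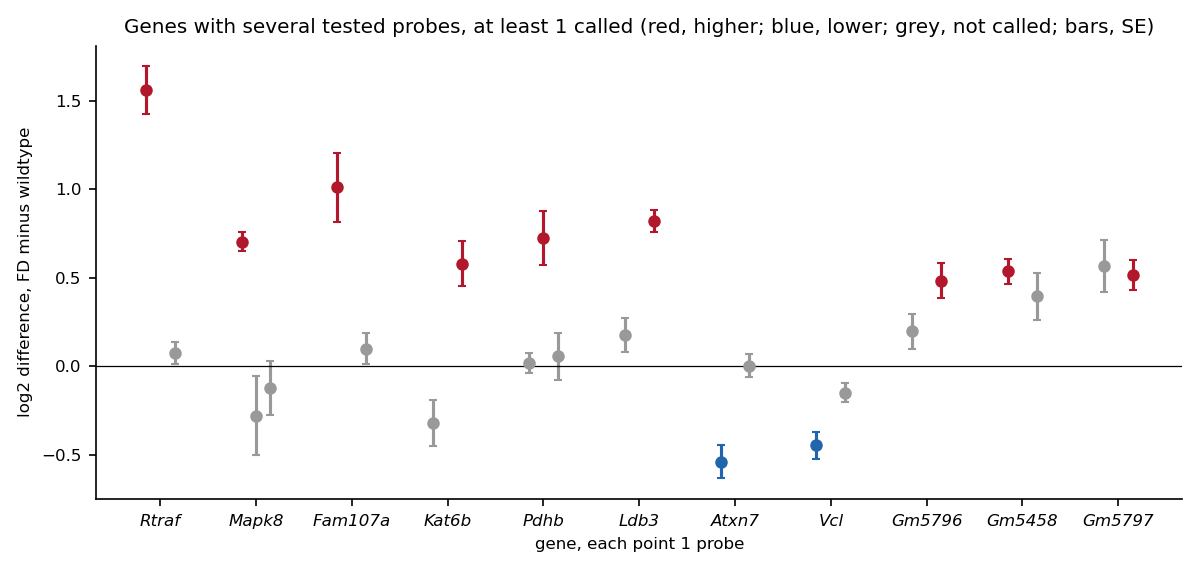
Log2 difference (FD minus wildtype) with its SE for every tested probe of the 11 genes that had several tested probes and at least 1 called, probes called higher in red, lower in blue and not called in grey. Rtraf, Fam107a, Mapk8, Kat6b and Pdhb each have probes more than 0.7 apart, whereas the probes of Gm5797 lie 0.053 apart.

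The members were also grouped by role, each gene standing by its brightest tested probe. Over all tested probes 1.96% were called higher and 1.11% lower. As the segments were chosen on this contrast, nothing is read from the counts of called genes in any role. Of 18 tested genes of DNA, RNA and protein turnover, 1 (Dnase1l3) was called, and the median difference was 0.06. Rpl15, a ribosomal protein, differed by 0.13, the ubiquitin-conjugating enzyme gene Ube2e2 by 0.13 and the mitochondrial ribosomal protein Mrps16 by 0.10, and none was called. Of 11 tested genes of lipid, sugar and mitochondrial metabolism, 3 were called higher (Samd8, Pdhb and Comtd1) and 0 lower. Adk, adenosine kinase, differed by -0.20, the mitochondrial porin Vdac2 by 0.00 and Chchd1 by 0.07.

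Genes of the synapse, of vesicles and of transmitter synthesis had a median difference of -0.13 over 10 tested genes, with 2 called lower and 0 higher. Over all tested probes 1.11% were called lower, and nothing is read from the 2. Besides Syt15, Sncg, γ-synuclein of peripheral sensory neurons, was called. Its signals were 16.46, 16.67, 16.70 and 16.52 in FD and 17.27, 17.30, 17.26 and 17.30 in wildtype samples. The wildtype values hardly varied, and all FD values lay below them, with a difference of -0.69 (SE 0.07), or 1.61-fold lower. The markers of DRG neurons as a whole had a median difference of -0.08, and 1 of 10, Snap25, was called, at -0.47 with an adjusted p of 0.00443 in limma. Camk2g, a calcium/calmodulin kinase subunit, differed by 0.08, the vesicle protein gene Synpr by -0.26 and Cadps, a priming factor of dense core vesicles, by -0.10, and none was called. In Synpr and Cadps all FD values lay below all wildtype values, as in 5.1% of all tested probes. Chat and Slc18a3, which encode the acetylcholine synthesising enzyme and the vesicular transporter and share a locus, differed by -0.46 (SE 0.18) and 0.23 (SE 0.17), in opposite directions and without a call.

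Of 10 tested genes of the cytoskeleton, matrix and adhesion, 1 was called higher (Arhgap22, a GTPase-activating protein, 0.34) and 1 lower (Mmrn2, an endothelial matrix protein, -0.47, SE 0.09). Synpo2l differed by -0.07 and the brightest Vcl probe by -0.15. The Synpo2l probe holds a TG repeat and has 22 related probes elsewhere on the array, so its signal may not be specific to this gene. Of 7 tested transcription factor and chromatin genes, 0 were called by limma at their brightest probe, with 4 at an unadjusted p under 0.05 and 0 by the methods' t-test after adjustment. Over all tested probes 17.6% had such an unadjusted p, and since the segments were chosen on this contrast nothing is read from the 4. Nr1d2, a circadian repressor of the REV-ERB family, was 0.64 higher in FD (SE 0.14) with no overlap between the groups and just missed the call, and its second probe differed by 0.29. Zfp488 differed by 0.09 and Zfp503 by -0.22. Of 9 tested receptor, ligand and signalling genes, 2 were called higher (Opn4 and Mapk8), and the median difference was 0.22. Gng2, a G protein γ subunit, differed by 0.22, Nkiras1, an inhibitor of NF-κB signalling, by 0.34 and Kctd6 by 0.26, each without a call and without overlap between the groups. In 8.3% of all tested probes the FD values likewise lay above all wildtype values.

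**Figure D5:**
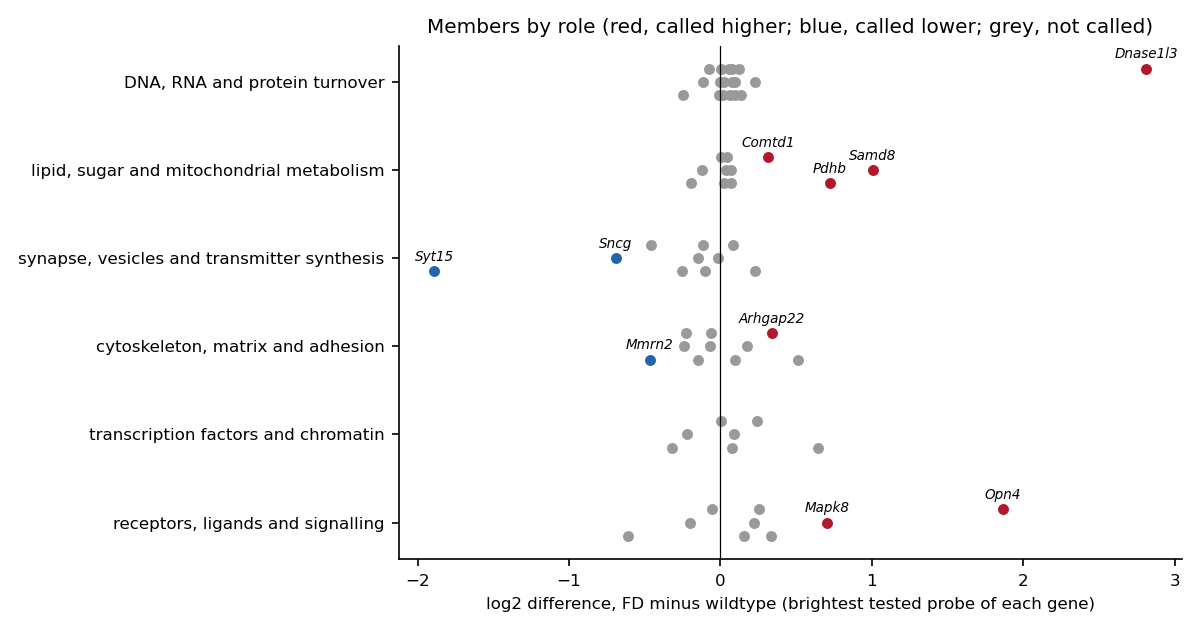
Log2 difference (FD minus wildtype) of the brightest tested probe of each listed gene, by role, called genes in colour and named. Most genes lie within 0.3 of 0, and Dnase1l3, Opn4 and Syt15 lie far outside this range.

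Some called members stood outside these roles. Mss51, a gene expressed mainly in skeletal muscle, gave 6.97, 7.16, 7.43 and 7.24 in FD and 8.08, 7.85, 8.13 and 7.89 in wildtype samples, a difference of -0.79 (SE 0.11) with no overlap. Il3ra, the α chain of the interleukin 3 receptor, gave 9.89, 9.88, 9.87 and 9.71 in FD and 10.85, 10.41, 10.55 and 10.58 in wildtype samples, a difference of -0.76 (SE 0.10). Both were lower in every FD sample. The long RNA B230110C06Rik was 0.94 higher (SE 0.09), Cfap20dc 0.65 higher (SE 0.09) and Lrrc3b, a leucine-rich repeat membrane protein gene, 0.55 higher (SE 0.06), and the groups did not overlap in these 3 genes either.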

How the data were processed

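RNA of 8 DRG samples was hybridised to the 8 arrays of 1 Agilent 60-mer mouse slide, 1 sample per array in 1 color. The deposited scanner values are intensity values, processed by the authors with Agilent Feature Extraction 10.7.3.1. The authors also deposited a log2 table, quantile normalized in GeneSpring, whose 38061 matched probes were used as an alternative. Here outlier spots were left out, log2 processed signals were averaged per probe, quantile normalized and compared with limma 3.58.1 in R 4.3.3 over the probes well above background on all 8 arrays, with Benjamini-Hochberg adjustment. Where a probe had several spots, a share of 0.5 of those used had to be above background. Depth is not defined for arrays, and 4 samples per group limit the precision. Of the 280 members, 178 were named through a RefSeq accession, 17 had an accession with no match and 85 had none; 36 carry only the probe's own ID.

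The members, gene lists and markers were chosen with earlier results of these data known. Named were the 4 genes of the segments, genes with a called probe (at most 30 by size), genes whose probes disagreed, called probes at the borders, up to 4 brightest genes per role and called genes of related families elsewhere. Chat, Slc18a3, Glud1, members detected in 1 group only, copies and unnamed probes that were not called or had small differences, and the uncalled genes and markers elsewhere were named after their values were seen. Probes count as related when at least 25 bases overlap at 80% identity or more. Sequences are from the array files (mm9) and RefSeq promoters (GRCm38.p6). Alternatives were other scaling, background correction, filters, blocks, weights, tests, the authors' table and leaving out each sample. The limma code was tested on simulated data. "At least" folds compare the brighter group's mean with the lowest signal above background, or the probe's own value where higher, on each array of the other group.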

Additional observations from a re-analysis of the deposited data

Results flagged for a closer look

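Within the 82 groups of 4 values examined (the 35 called members and 6 members detected in 1 group only), 8 held a sample far from the other 3, with most of the group's range lying between it and its nearest neighbour. Chance gives about 1 such group in 20. FD sample 2 was high for Gm5795 (8.03) and for Gm5797 (9.32), and FD sample 3 for the unnamed probe A_55_P2171196 (8.15). Wildtype sample 3 was high for Gm5797 (8.97), and wildtype sample 2 was low for Gm3453 (6.86). FD sample 4 was low for Il3ra (9.71) and FD sample 1 for Lrrc3b (10.05). Wildtype sample 2 had 4.83 for Fam25c, beside 2.63 in the next wildtype sample, and it was not well above background there. The groups stayed apart in all of the called members named here.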

How the results depend on the processing

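With normexp background correction the differences were 1.63 for Dnase1l3, 0.99 for Opn4, 0.74 for Samd8 and -1.15 for Syt15, each nearer to 0 than the reported value by more than the spread between replicates. This correction adds an offset of 50 to every signal, and a constant added to both groups draws log2 differences toward 0. The wildtype means of Dnase1l3 and Opn4, 5.31 and 5.33, lay near the lowest signals above background on wildtype arrays (4.41 to 4.94). The share of the change due to the offset was not tested. Leaving out 1 sample at a time gave 2.74 to 2.90, 1.81 to 1.91, 0.96 to 1.03 and -1.94 to -1.81 for the same genes, 15 to 24 members called higher, 4 to 12 lower, 4 to 9 copies called higher, a median absolute difference of 0.15 to 0.17 and a copy median of 0.37 to 0.40. Within the slide rows, Opn4 differed by 1.73 in row 1 and Syt15 by -1.75 and -2.14. With the row as a block 6 copies were called higher. Array weights gave 18 lower members. The methods' t-test after adjustment gave 11 higher and 1 lower member and 1 copy. Without a filter on dim probes all 280 members were tested and 5 copies called, and 7 copies were called over all probes that the authors tabulated. The results on copies, the values within rows and the fit over all tabulated probes were added after seeing the data. Under every alternative the 35 called members kept the sign of their difference, as far as they were fitted. For most alternatives this was fixed in advance. Without overlap between the groups, leaving out or weighting samples cannot reverse a sign. The filters, the replicate block and the t-test keep the same group means.

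Replicate numbers did not pair the samples. Deviations of same-numbered samples correlated at 0.06, -0.25, -0.05 and -0.02. With the replicate block 12 members were called higher, 4 lower and 2 copies higher, and 16 of the 35 called members remained. Dim probes are limited by the background, and 100 members had no tested value.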
